A study of Mus musculus with 6 samples.

Results

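Cytochrome P450 enzymes were followed at the RNA level in mouse muscle, as the genes whose symbol reads Cyp, a number, a letter and a number, with pseudogenes marked -ps left out. Symbols were found from the RefSeq accession of each array probe, and 93 P450 genes with 114 probes were on the array, of 20972 symbols in all. Of these, 37 had signal well above background on each of the 2 arrays of some group and could be tested, and the other 56 are described by detection alone. The symbol pattern left out Cyp51, Cyp2ab1 and 3 pseudogenes (Cyp2d37-ps, Cyp4b1-ps2 and Cyp4f41-ps). Cyp2d13, annotated as a transcribed pseudogene but without the -ps mark, is counted among the 93 and was not tested.

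The study measured total RNA from gastrocnemius muscle in 3 groups of 2 mouse samples each, on 6 one-colour Agilent arrays. MDX mice, a dystrophin-deficient strain used as a model of Duchenne muscular dystrophy, drank bioceramic water (labelled JJ101) for 10 months in the JJ101-fed MDX group (MDX_JJ101 in the plots). MDX mice in the tap-fed MDX group (MDX_tap) drank tap water, also with 10 months given. C57BL/10 (B10) mice, the background strain of MDX without the dystrophin mutation, drank tap water in the tap-fed B10 group (B10_tap), with 10 months given as the time for it too. The labels give no age, sex or dose, and nothing says whether the 2 samples of a group came from separate mice, so p-values measure the spread between these samples, which may be technical. All 6 arrays were on 1 slide. The JJ101-fed MDX arrays lay in row 2 and the others in row 1, so row and JJ101 cannot be told apart. Between tap-fed MDX and tap-fed B10, genotype and slide column cannot be told apart either.

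Levels are log2 signals relative to the 75th percentile of the same array, so a value of 0 is the array's upper quartile. They compare arrays for 1 probe and do not rank one gene against another. Well above background is the scanner software's flag for a spot clearly brighter than its surroundings. Between 42.5% and 51.6% of the spots had it, with the 2 lowest shares (43.8% and 42.5%) on the JJ101-fed MDX arrays. The lowest level still well above background was also higher there, at -3.33 and -3.29, against -4.14 and -3.90 on tap-fed MDX and -4.23 and -4.13 on tap-fed B10 arrays. Replicates correlated across the genes tested at r = 0.989 in JJ101-fed MDX, 0.993 in tap-fed MDX and 0.995 in tap-fed B10.

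The labelled tissue was set against marker genes before the P450 genes were read. Of 14 skeletal muscle markers, 5 were well above background on all 6 arrays, and Mylpf and Myod1, a fast muscle light chain and a muscle transcription factor, were on none. The number detected was 6 and 5 in JJ101-fed MDX, 12 and 12 in tap-fed MDX and 12 and 11 in tap-fed B10. Of 13 heart markers, 12 were well above background on all 6 arrays. Myh6, the atrial and ventricular alpha myosin heavy chain of the mouse heart, had levels of 10.28 and 10.32 in JJ101-fed MDX, 10.17 and 10.30 in tap-fed MDX and 10.45 and 10.39 in tap-fed B10. Myh4, the myosin of the fastest skeletal fibres, had levels of -5.52 and -5.42 in JJ101-fed MDX, 0.91 and 3.53 in tap-fed MDX and 2.62 and 2.28 in tap-fed B10. The heart markers go against the label gastrocnemius on every array, while most skeletal muscle markers were detected on the 4 tap-fed arrays, and the tissue is called the sampled muscle below.

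Cytochrome P450 enzymes hold a haem group and insert an oxygen atom into their substrates, with electrons passed on by partners such as P450 oxidoreductase in the endoplasmic reticulum or ferredoxin in mitochondria. Families 1 to 3 are known for oxidising drugs and pollutants, mostly in liver, and family 4 for hydroxylating fatty acids and eicosanoids. Other families make or break down steroid hormones, bile acids, vitamin D and retinoic acid. Striated muscle is not a main site of drug metabolism, but its vessels, fibroblasts and infiltrating cells carry some P450 enzymes.

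Promoter sequence is shown for examples, as the 250 bases before the RefSeq start site in assembly GRCm38.p6. Cyp1b1, Cyp2j9, Cyp4f18 and Cyp4v3 were picked from the 8 P450 genes that passed the test between JJ101-fed and tap-fed MDX. Cyp26b1 had the largest difference between tap-fed MDX and tap-fed B10, without passing. Cyp1b1 is a known target of the aryl hydrocarbon receptor, whose core recognition motif is GCGTG. Capitals mark GCGTG on either strand (CACGC when read on the other strand) and TATAAA on the strand of the gene.

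Cyp1b1, chr17:79715062-79715311, minus strand: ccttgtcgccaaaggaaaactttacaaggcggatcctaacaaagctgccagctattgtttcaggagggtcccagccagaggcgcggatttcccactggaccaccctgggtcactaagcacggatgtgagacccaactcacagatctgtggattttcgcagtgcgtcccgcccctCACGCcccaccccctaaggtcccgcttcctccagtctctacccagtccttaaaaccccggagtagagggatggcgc
Cyp2j9, chr4:96591486-96591735, minus strand: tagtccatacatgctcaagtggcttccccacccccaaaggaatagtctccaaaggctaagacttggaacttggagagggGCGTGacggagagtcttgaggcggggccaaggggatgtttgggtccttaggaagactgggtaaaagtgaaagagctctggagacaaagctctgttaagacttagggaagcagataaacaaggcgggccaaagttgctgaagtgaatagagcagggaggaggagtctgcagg
Cyp4f18, chr8:72009627-72009876, minus strand: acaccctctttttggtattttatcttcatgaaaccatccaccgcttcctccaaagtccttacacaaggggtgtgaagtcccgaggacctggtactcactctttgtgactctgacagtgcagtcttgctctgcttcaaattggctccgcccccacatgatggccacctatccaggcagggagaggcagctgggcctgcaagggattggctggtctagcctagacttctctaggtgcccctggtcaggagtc
Cyp4v3, chr8:45333164-45333413, minus strand: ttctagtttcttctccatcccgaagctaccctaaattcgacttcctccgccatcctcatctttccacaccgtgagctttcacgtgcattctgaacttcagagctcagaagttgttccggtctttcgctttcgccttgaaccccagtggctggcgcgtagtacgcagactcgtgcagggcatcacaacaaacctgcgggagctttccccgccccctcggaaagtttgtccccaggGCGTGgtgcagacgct
Cyp26b1, chr6:84593811-84594060, minus strand: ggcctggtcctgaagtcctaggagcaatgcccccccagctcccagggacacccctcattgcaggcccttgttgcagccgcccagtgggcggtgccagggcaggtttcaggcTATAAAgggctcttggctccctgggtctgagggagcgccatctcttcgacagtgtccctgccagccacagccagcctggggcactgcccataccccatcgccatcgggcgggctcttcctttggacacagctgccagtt

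The Cyp1b1, Cyp2j9 and Cyp4v3 windows each held 1 GCGTG, and the Cyp26b1 window held 1 TATAAA 139 bases before the start. The Cyp4f18 window held neither. Windows were found for 70 of the 93 P450 genes. A gene with several windows counted as holding a motif if any of its windows did. GCGTG on either strand was held by 33.3% of the 27 tested genes, 9.30% of the 43 untested genes and 30.9% of all 27025 genes with a window. TATAAA on the gene's strand was in 22.2%, 32.6% and 8.94% of these 3 sets, and GGGCGG, the GC box, on either strand in 44.4%, 6.98% and 35.4%. None of these motifs contains another, and a match describes the sequence, not a bound site. CpG dinucleotides were counted in the window of a gene that had the most. The median was 3 in tested P450 genes, 2 in untested ones and 6 over all genes.

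Detection was lower among the P450 genes than over the array. The 37 tested genes are 39.8% of the 93, against 66.5% of all symbols. On all 6 arrays 25 P450 genes (26.9%, against 58.8% of all symbols) were well above background, and on no array 39 (41.9%, against 28.4%). Of the 45 genes of the drug and pollutant families 13 were tested, and of the 27 fatty acid hydroxylases and epoxygenases 14. Of 6 sterol and bile acid enzymes 4 were tested (Cyp7b1, Cyp27a1, Cyp39a1 and Cyp46a1), while Cyp7a1, the rate-limiting enzyme of bile acid synthesis, and Cyp8b1 were on no array. Of 6 steroid hormone enzymes Cyp17a1 and Cyp21a1 were tested, while Cyp11a1, Cyp11b1 and Cyp11b2 were on no array. Of the vitamin D and retinoic acid enzymes, 1 of 3 each was tested, Cyp2r1, a vitamin D 25-hydroxylase, and Cyp26b1, which breaks down retinoic acid.

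A smaller share of the genes could be tested inside the tandem clusters of the drug-metabolising and fatty acid families than outside them. Runs of at least 3 neighbouring P450 genes, with at most 5 other genes between, numbered 8 in the RefSeq annotation and held 62 of the 93 genes, 21 of them tested. Outside the runs 16 of 31 were tested. In the Cyp3a run on chromosome 5, 0 of 7 genes on the array were tested, and in the Cyp2c run on chromosome 19 the tested ones were 5 of 12. The Cyp4a, Cyp4x1 and Cyp4b1 run on chromosome 4 had 3 of 10 tested. Genes of such runs are close copies of one another, and how far their probes also bind the neighbours was not tested.

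**Figure D1:**
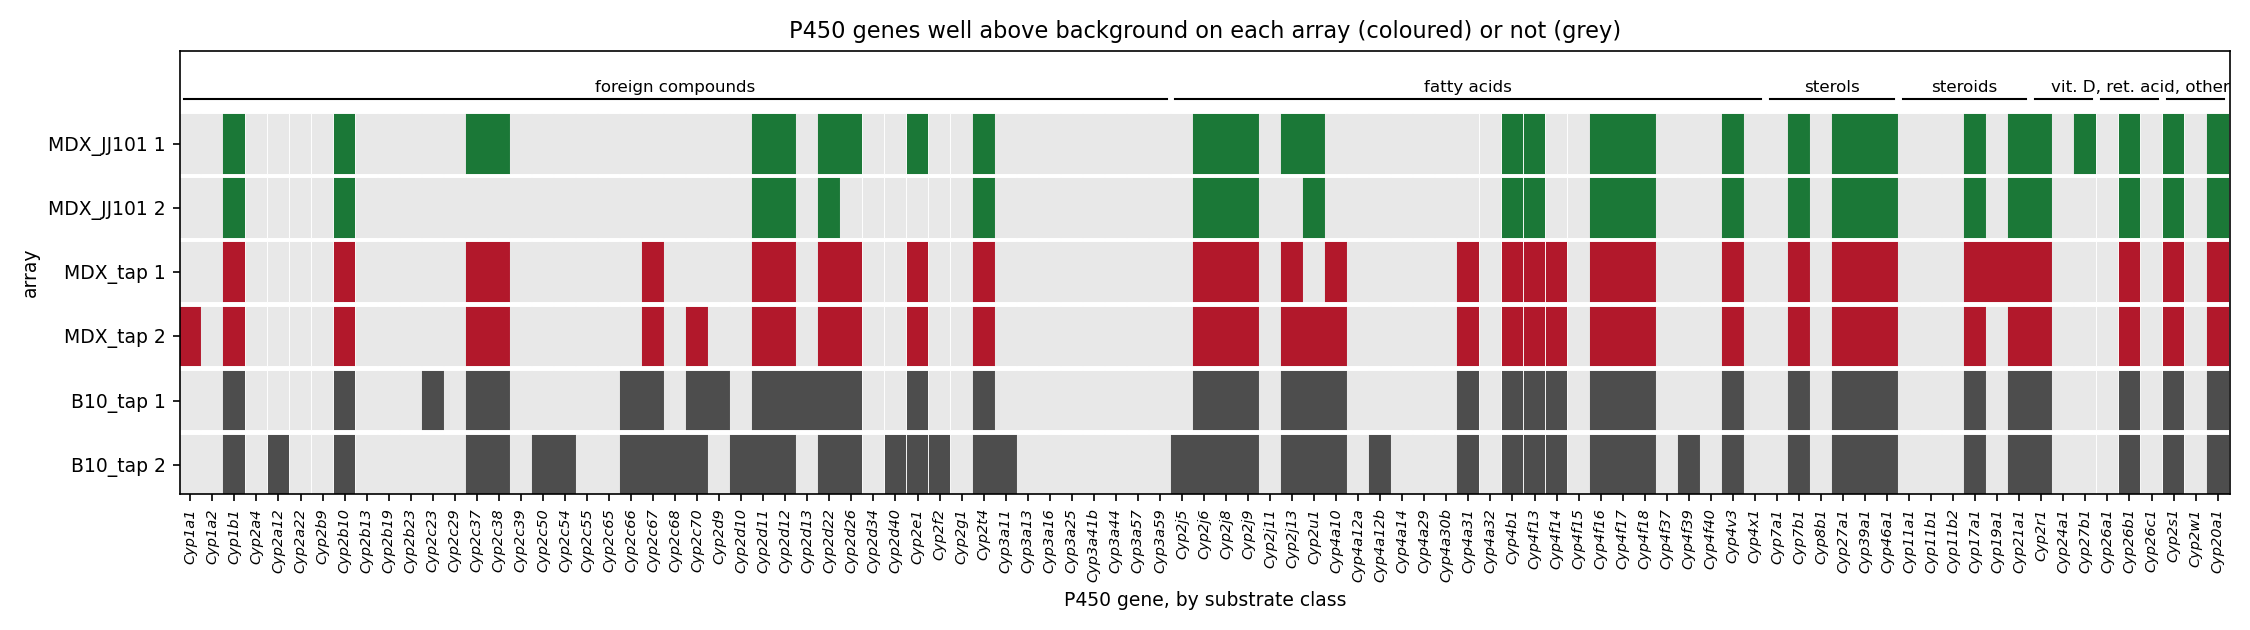
Columns are the 93 P450 genes grouped by substrate class, and rows are the 6 arrays. A coloured cell is a gene with at least 1 probe well above background on that array, and a grey cell is a gene without one. The JJ101-fed MDX arrays had 32 and 26 coloured cells, the tap-fed MDX arrays 35 and 37 and the tap-fed B10 arrays 40 and 48.

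The number of P450 genes well above background was 32 and 26 in JJ101-fed MDX, 35 and 37 in tap-fed MDX and 40 and 48 in tap-fed B10. For all symbols the shares were 61.7% and 60.4% in JJ101-fed MDX, 66.4% and 65.2% in tap-fed MDX and 67.3% and 67.1% in tap-fed B10. A total of 17 P450 genes were detected on exactly 1 array, and for 11 of them that array was replicate 2 of tap-fed B10. These 11 were Cyp2a12, Cyp2c50, Cyp2c54, Cyp2c68, Cyp2d10, Cyp2d40, Cyp2f2, Cyp2j5, Cyp3a11, Cyp4a12b and Cyp4f39, and several of them, such as Cyp3a11, are abundant in liver. A list of 14 liver genes was also detected most in tap-fed B10. Its number detected was 4 and 4 in JJ101-fed MDX, 5 and 5 in tap-fed MDX and 11 and 13 in tap-fed B10. The mean level of the 11 liver genes tested was -2.11 and -3.11 in JJ101-fed MDX, -2.91 and -2.96 in tap-fed MDX and -1.56 and -0.40 in tap-fed B10. Most of the 11 could be tested only through tap-fed B10, which favours a higher level there. Between JJ101-fed and tap-fed MDX the list's median log2 difference was 0.26, with 7 of 11 genes positive. Most of the list was not well above background on these arrays. With dim probes let in, the median difference over all genes was also 0.26, against 0.00 with the filter. No direction of the liver genes is therefore read between these 2 groups. The part of the liver genes in the P450 detections was not tested.

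**Figure D2:**
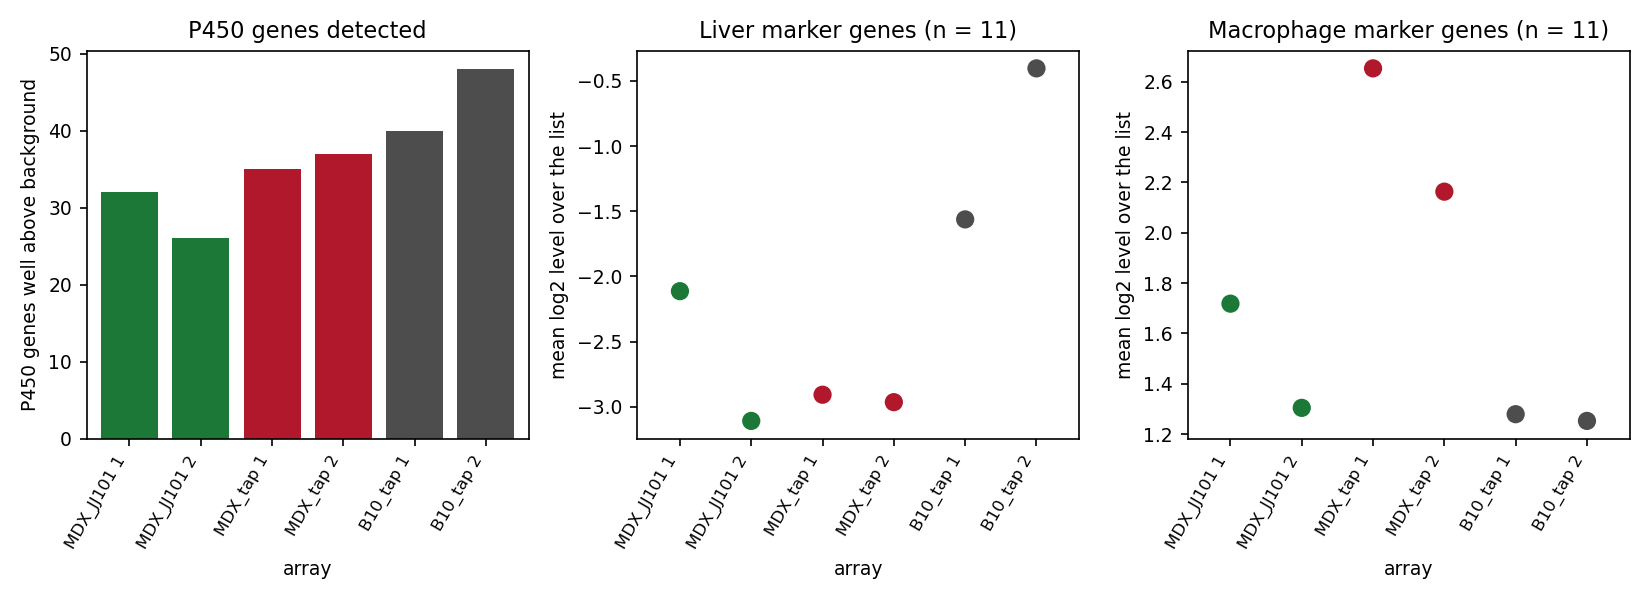
Bars give the number of P450 genes well above background on each array (left), and points give the mean log2 level of 11 tested liver marker genes (middle) and 11 tested macrophage marker genes (right). The liver genes are highest on the 2 tap-fed B10 arrays and the macrophage genes on the 2 tap-fed MDX arrays. Most of the 11 liver genes could be tested only through tap-fed B10.

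The comparison of tap-fed MDX with tap-fed B10 asks what the dystrophin mutation is accompanied by. No P450 gene passed the threshold of an adjusted p of 0.05 (limma, all 6 arrays fitted together, Benjamini-Hochberg over 20869 genes and transcripts), and 0.024% of all genes tested did. At an unadjusted p under 0.05 the count was 12 of 37 P450 genes, 4 higher and 8 lower in tap-fed MDX, against 21% of all genes tested. The median log2 difference was -0.27 over the P450 genes and -0.06 over all genes tested.

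Cyp1b1 and Cyp4f14 shared the smallest adjusted p. Cyp1b1 is an extrahepatic enzyme that acts on oestrogens, retinoids and polycyclic aromatic hydrocarbons. Its levels were 1.30 and 1.38 in tap-fed MDX and -0.19 and -0.40 in tap-fed B10. Both tap-fed MDX arrays were above both tap-fed B10 arrays, by 1.64 on the log2 scale (SE 0.14, 3.12-fold, adjusted p = 0.0528). Over the alternative settings the adjusted p ran between 0.00293 and 0.311, and it passed under 8 of them.

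Cyp4f14, a leukotriene and fatty acid hydroxylase, had levels of -3.48 and -3.31 in tap-fed MDX and -1.97 and -1.63 in tap-fed B10. Both tap-fed MDX arrays were below both tap-fed B10 arrays (difference -1.60, SE 0.15, 3.03-fold, adjusted p = 0.0528, between 0.00126 and 0.311 over the alternatives). Liver is a main site of Cyp4f14. The 11 tested liver genes had a median difference of -2.46 in this comparison, with 1 of 11 positive, and none passed the test. Most of the 11 could be tested only because both tap-fed B10 arrays were well above background. Lower levels in tap-fed MDX were therefore favoured in advance. The part of the liver genes in the Cyp4f14 level was not tested.

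Cyp26b1 had the largest difference of the 37, with levels of -0.81 and 1.02 in tap-fed MDX and 4.04 and 3.11 in tap-fed B10. The groups did not overlap, but the replicates of each lay far apart. The log2 difference was -3.47 (SE 0.88, 11.1-fold lower in tap-fed MDX, adjusted p = 0.144). It passed under 2 of 16 alternatives, with the smallest adjusted p, 2.29e-08, under spike-in scaling. That fit had similar SEs for Cyp1b1 (0.34), Cyp2c37 (0.35) and Cyp2c66 (0.37), against 0.14, 0.24 and 0.40 in the reported fit. Its p-values therefore take little account of the replicate spread of a single gene.

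Cyp2c67, a member of the Cyp2c drug and fatty acid epoxygenase family, had -2.91 and -2.88 in tap-fed MDX and -1.99 and -1.52 in tap-fed B10 (difference -1.14, SE 0.27, adjusted p = 0.132). The other lower genes at an unadjusted p under 0.05 were Cyp2c37, Cyp2c66, Cyp2d11, Cyp2d22 and Cyp4a31. Of these, Cyp2c66 could be tested only through tap-fed B10.

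Cyp4f18, Cyp4v3 and Cyp7b1 had higher means in tap-fed MDX, as did Cyp1b1. Cyp4f18, which inactivates leukotriene B4 in mouse neutrophils, had 0.83 and 0.61 in tap-fed MDX and -0.22 and 0.05 in tap-fed B10 (difference 0.81, SE 0.15, adjusted p = 0.105). Cyp4v3, the mouse counterpart of human CYP4V2, a fatty acid omega-hydroxylase, had 0.72 and 0.55 in tap-fed MDX and 0.14 and 0.05 in tap-fed B10 (difference 0.54, SE 0.16, adjusted p = 0.172). Cyp7b1, an oxysterol 7-alpha-hydroxylase, had -0.68 and -1.17 in tap-fed MDX and -1.70 and -1.52 in tap-fed B10 (difference 0.69, SE 0.23, adjusted p = 0.195). In each of the 3 the groups did not overlap, and none passed the test. The 11 tested macrophage genes had mean levels of 2.65 and 2.16 in tap-fed MDX and 1.28 and 1.25 in tap-fed B10. The 9 fibroblast genes had 4.52 and 4.53 in tap-fed MDX and 3.51 and 3.43 in tap-fed B10, and the 7 tested mast cell genes -1.47 and -1.46 in tap-fed MDX and -2.62 and -2.78 in tap-fed B10. No gene of these 3 lists passed the test, and their part in the P450 levels was not tested. In bulk tissue, fewer cells of a type and less RNA per cell cannot be told apart.

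**Figure D3:**
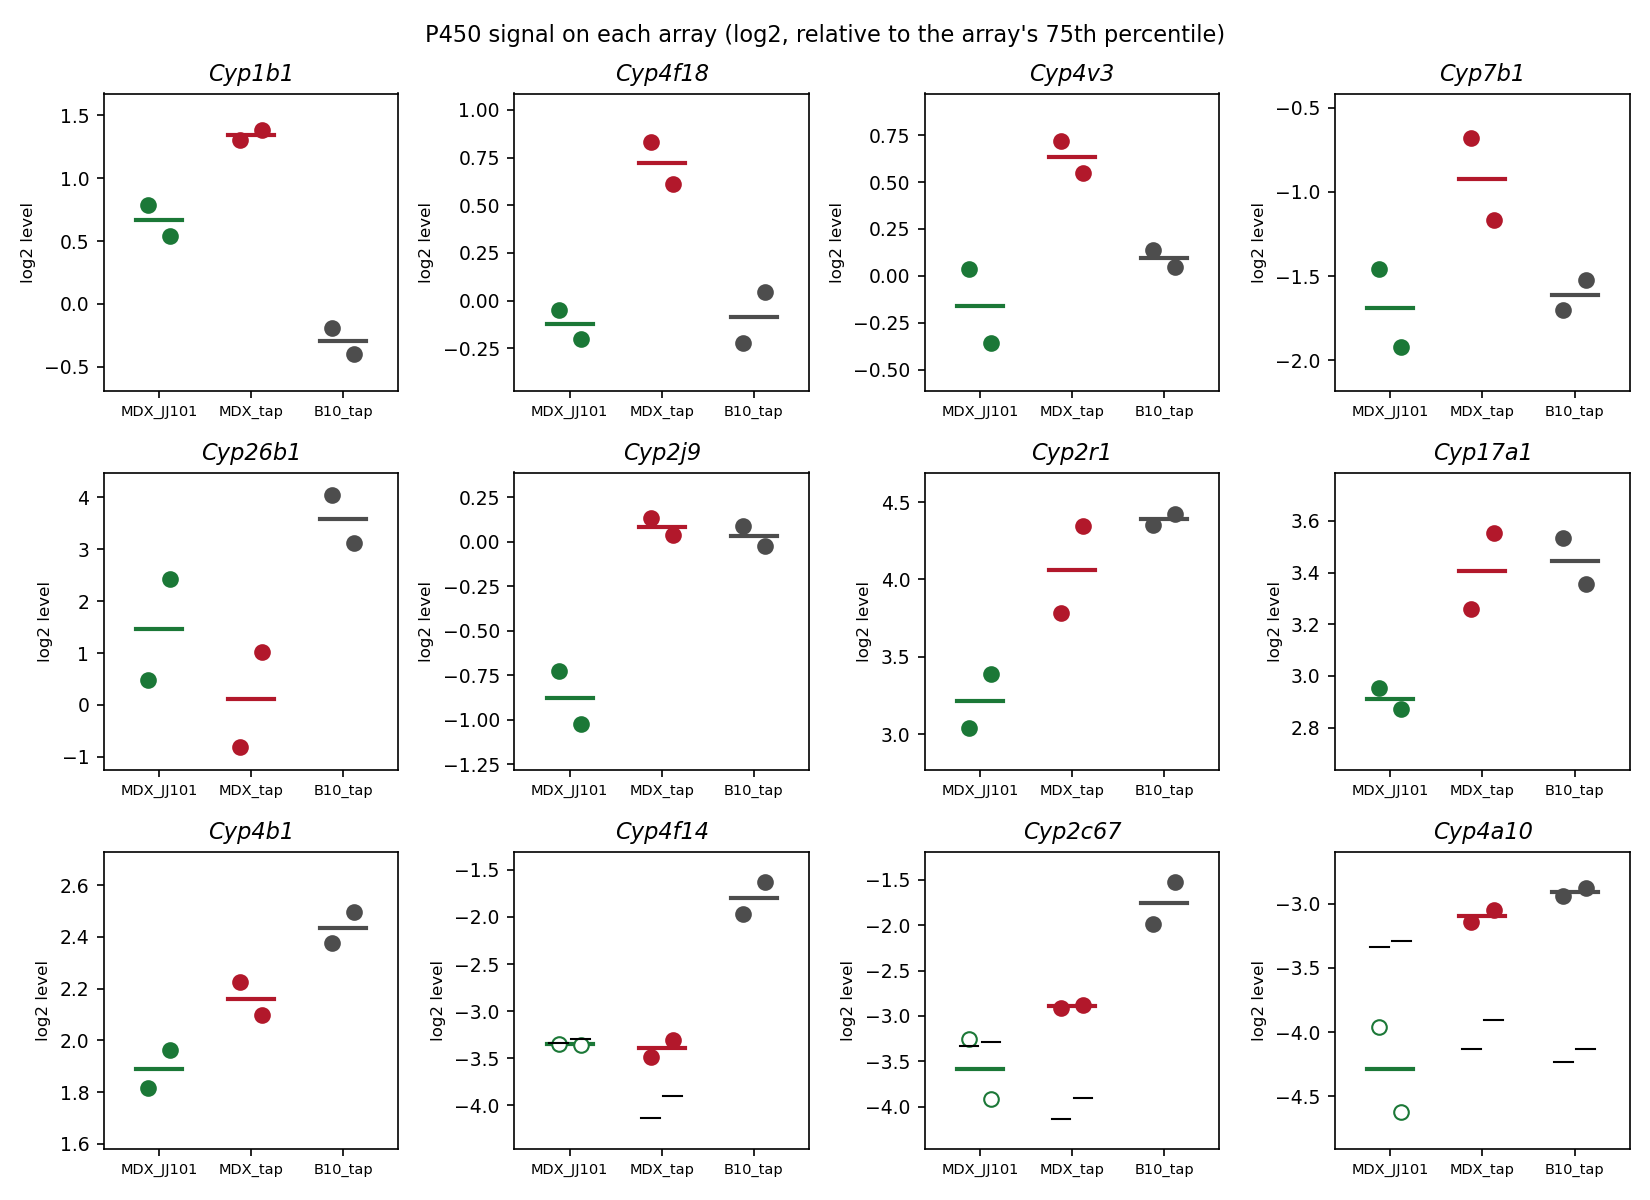
Each panel is 1 P450 gene, with points for the arrays, a bar for the mean of each group and the log2 level relative to the array's 75th percentile on the vertical axis, whose range differs between panels. Open points are not well above background, and short black lines mark the lowest level well above background on an array. Cyp1b1, Cyp4f18, Cyp4v3 and Cyp7b1 are highest on the 2 tap-fed MDX arrays.

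The comparison of JJ101-fed MDX with tap-fed MDX asks what the water changed in dystrophic mice. Of the 37 P450 genes, 8 passed the test and all 8 were lower in JJ101-fed MDX: Cyp1b1, Cyp2j9, Cyp2r1, Cyp4a10, Cyp4a31, Cyp4f18, Cyp4v3 and Cyp17a1. They are 21.6% of the P450 genes, against 36.1% of all genes tested, of which 19.9% were higher and 16.1% lower. The share called is therefore below the background, and the share lower (all of the 21.6%) is a little above it. The median log2 difference was -0.30 over the P450 genes, against 0.00 over all genes tested. By class, 5 of 14 fatty acid enzymes, 1 of 13 drug-family enzymes, 1 of 2 steroid hormone enzymes and the 1 vitamin D enzyme fell, and none of the 4 sterol enzymes passed the test.

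Among the fatty acid enzymes, Cyp2j9 had the smallest p. It is an arachidonic acid epoxygenase known from mouse brain, and its levels were -0.73 and -1.02 in JJ101-fed MDX and 0.13 and 0.04 in tap-fed MDX. The groups did not overlap (difference -0.96, SE 0.14, 1.95-fold lower, adjusted p = 0.0131). Cyp4f18 had -0.05 and -0.20 in JJ101-fed MDX and 0.83 and 0.61 in tap-fed MDX, a difference of -0.85 (SE 0.15, adjusted p = 0.0161). Cyp4v3 had 0.03 and -0.36 in JJ101-fed MDX and 0.72 and 0.55 in tap-fed MDX, a difference of -0.80 (SE 0.16, adjusted p = 0.0216). In these 3 genes both JJ101-fed arrays were below both tap-fed MDX arrays.

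Cyp4a10 and Cyp4a31, fatty acid omega-hydroxylases that PPAR alpha induces in mouse liver, were well above background on both tap-fed MDX arrays and on neither JJ101-fed one. Cyp4a10 had measured levels of -3.96 and -4.62 in JJ101-fed MDX and -3.14 and -3.05 in tap-fed MDX, so it was at least 1.16-fold lower. Here and below, such a bound sets the mean of the brighter group against the lowest level well above background on the dim arrays, or the dim probe's own level where that is higher. An adjusted p given beside a bound belongs to the measured difference, which uses the dim signals as measured. For Cyp4a10 that difference was -1.20 (SE 0.23, adjusted p = 0.0187). Over the alternatives it ran between -1.64 and -0.19, with an adjusted p up to 0.131. Cyp4a31 had -4.16 and -4.94 in JJ101-fed MDX and -3.49 and -3.32 in tap-fed MDX (adjusted p = 0.0287), and the bound was under 1, so no fold is given. With all dim values raised to the highest of the arrays' floors, the Cyp4a31 difference was 0.

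In the other classes, Cyp1b1 had 0.79 and 0.54 in JJ101-fed MDX and 1.30 and 1.38 in tap-fed MDX, a difference of -0.68 (SE 0.14, 1.60-fold lower, adjusted p = 0.0211). Cyp2r1, an enzyme that makes 25-hydroxyvitamin D, had 3.04 and 3.39 in JJ101-fed MDX and 3.78 and 4.34 in tap-fed MDX, a difference of -0.85 (SE 0.22, adjusted p = 0.0384). Cyp17a1, the 17-alpha-hydroxylase and lyase of steroid synthesis, had 2.95 and 2.87 in JJ101-fed MDX and 3.26 and 3.55 in tap-fed MDX, a difference of -0.49 (SE 0.14, adjusted p = 0.0467). In all 3 the arrays of the 2 groups did not overlap. The call was lost under 12 of 17 alternatives for Cyp17a1 (adjusted p up to 0.246), 9 for Cyp2r1, 8 each for Cyp1b1, Cyp4a10 and Cyp4a31, 7 for Cyp4v3, 4 for Cyp4f18 and 3 for Cyp2j9.

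Cyp7b1 and Cyp26b1 missed the threshold. Cyp7b1 had -1.46 and -1.92 in JJ101-fed MDX and -0.68 and -1.17 in tap-fed MDX (difference -0.77, SE 0.23, adjusted p = 0.0541). Cyp26b1 had 0.49 and 2.43 in JJ101-fed MDX and -0.81 and 1.02 in tap-fed MDX (difference 1.35, SE 0.88, adjusted p = 0.266). The Cyp26b1 groups overlap, although within slide column 3 the JJ101-fed array was higher by 1.30 and within column 4 by 1.41. Cyp2b10, which the constitutive androstane receptor induces in liver, had -0.15 and 2.18 in JJ101-fed MDX and -0.97 and -0.12 in tap-fed MDX (difference 1.56, SE 0.79, adjusted p = 0.174), and rested mostly on 1 array.

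Columns 3 and 4 of the slide each held 1 JJ101-fed and 1 tap-fed MDX array. Since the groups did not overlap for the 8 called genes, their sign within a column was given. The log2 differences within column 3 and column 4 were -0.86 and -1.06 for Cyp2j9, -0.88 and -0.81 for Cyp4f18, -0.68 and -0.91 for Cyp4v3 and -0.51 and -0.85 for Cyp1b1. With the column as a block, 0 of 37 P450 genes and 0 of all genes tested passed, and the smallest adjusted p among the P450 genes was 0.0578. The count also moved when 1 array of either MDX group was left out, which leaves 1 array in that group. Leaving out an array of tap-fed B10, the group not compared, repeated the fit with only the 2 groups. In that fit 2 P450 genes passed, and 3247 over all genes, against 7529 in the reported fit.

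Other cell types differed between the same arrays. The mean level of the macrophage list was 1.72 and 1.30 in JJ101-fed MDX and 2.65 and 2.16 in tap-fed MDX, with 7 of 11 lower and 1 higher, and all 11 were detected on all 4 of these arrays. Of 8 endothelial genes 5 were lower, and of 9 fibroblast genes 3 were lower with 0 higher. Of 8 tested adipocyte genes 5 were lower and 3 higher. Of 12 tested skeletal muscle genes 8 were lower, and the list's number detected was 6 and 5 in JJ101-fed MDX and 12 and 12 in tap-fed MDX. Of 12 heart genes 5 were higher and 0 lower, with mean levels of 7.01 and 6.97 in JJ101-fed MDX and 6.48 and 6.52 in tap-fed MDX. The part of these lists in the P450 differences was not tested.

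**Figure D4:**
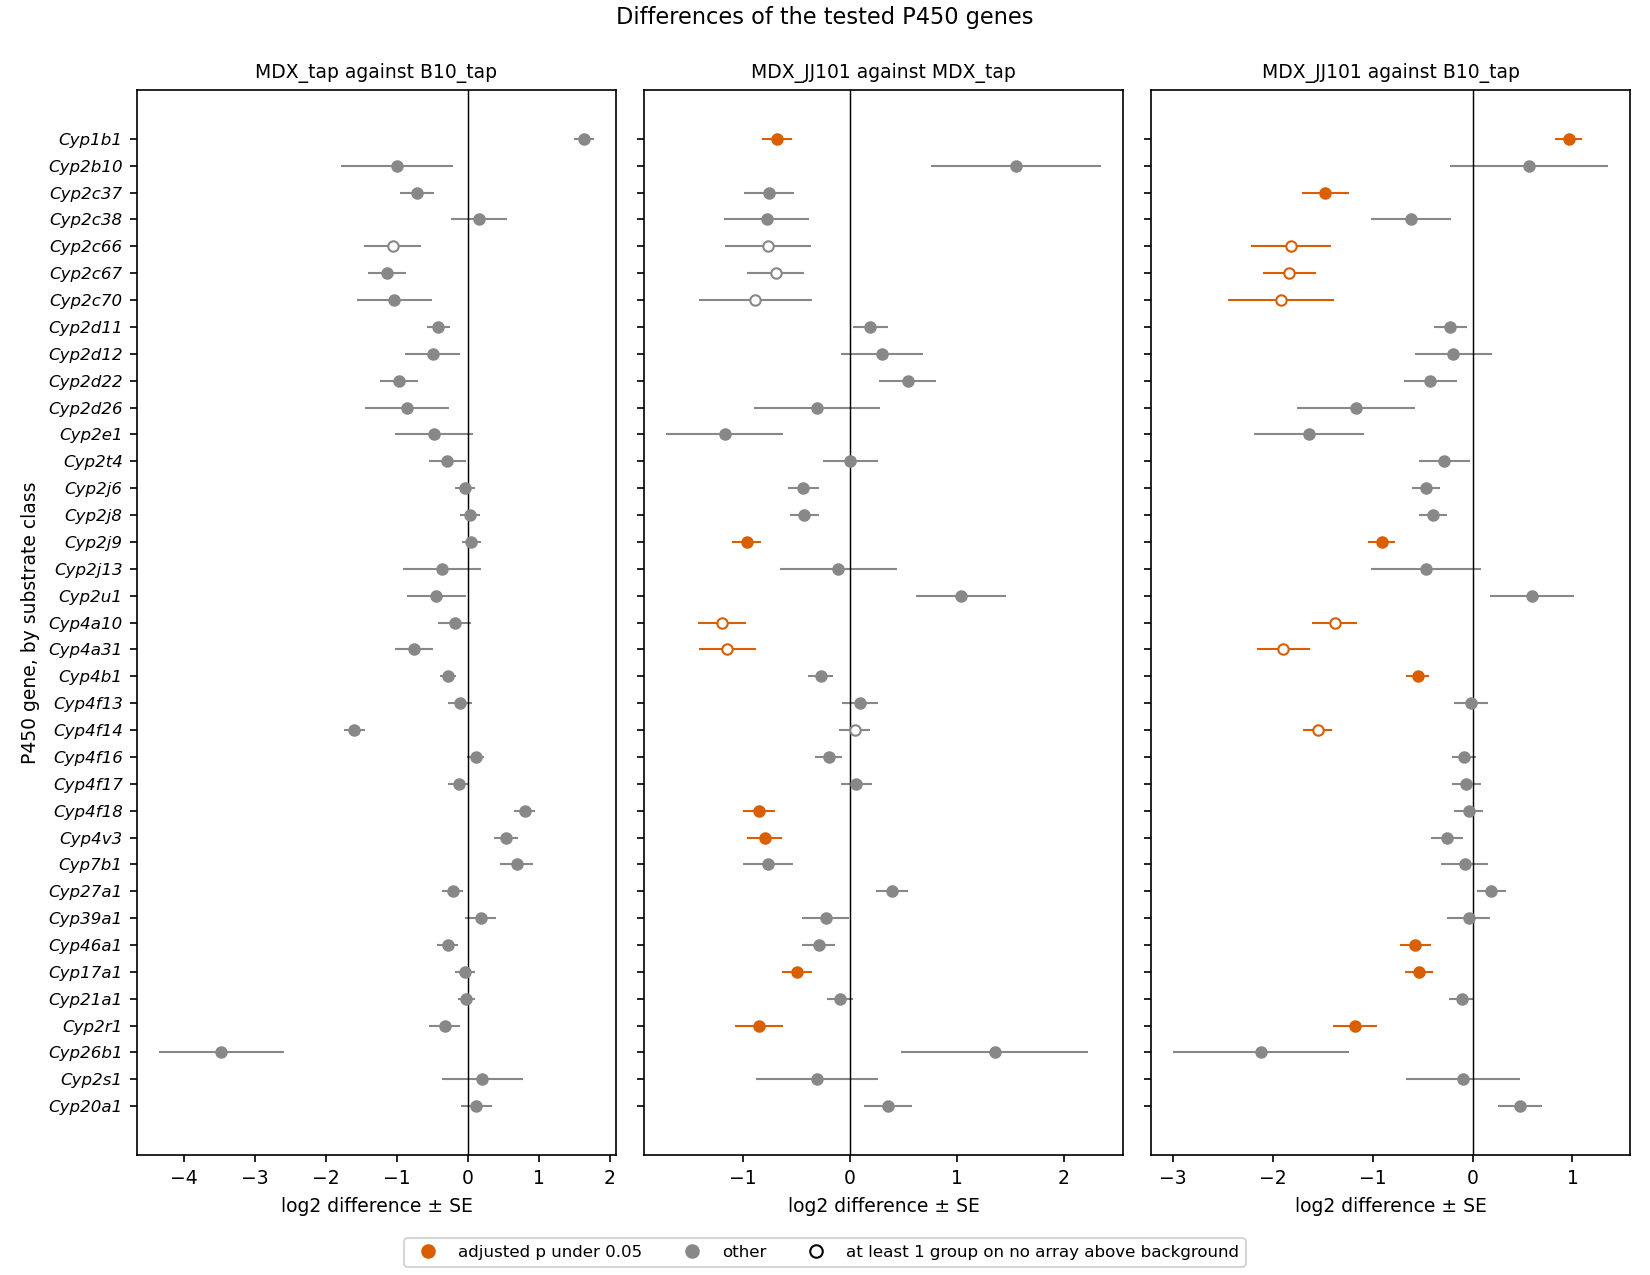
Points are the log2 differences of the 37 tested P450 genes with their standard errors, first-named group minus the other, in 3 panels with separate axes. Orange points passed an adjusted p of 0.05, and open points are genes with at least 1 of the groups on no array above background. The middle panel has 8 orange points, all below 0, and the right panel 13, of which Cyp1b1 alone lies above 0.

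JJ101-fed MDX set against tap-fed B10 compares the treated dystrophic group with the strain control and shares its arrays with both comparisons above. Here 13 of 37 P450 genes passed, 1 higher and 12 lower, which is 35.1% against 33.6% of all genes tested (16.2% higher and 17.4% lower). The share called is thus near the background. The split moved with the scaling. It was 0 higher and 19 lower with spike-in scaling, where 1.93% of all calls were higher, and 2 higher and 9 lower with median centring, where 83.7% were, against 48.2% of all calls in the reported fit. Without either tap-fed B10 array the count was 0, and the count over all genes fell to 112 without replicate 1 and 76 without replicate 2, against 7008 with all arrays.

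Cyp1b1 was the gene that was higher, by 0.96 (SE 0.14, 1.95-fold, adjusted p = 0.0128), so its level in JJ101-fed MDX lay between those of the other groups. With spike-in scaling that difference was 0.45 and did not pass (adjusted p = 0.331, between 0.00643 and 0.331 over the alternatives). Of the 12 lower genes, 6 were well above background on no JJ101-fed array. Cyp4f14 had -3.35 and -3.35 in JJ101-fed MDX and -1.97 and -1.63 in tap-fed B10, at least 2.86-fold lower (adjusted p = 0.0087). Cyp2c67 had -3.26 and -3.91 in JJ101-fed MDX and -1.99 and -1.52 in tap-fed B10, at least 2.87-fold lower (adjusted p = 0.0129). The bounds were 1.58 for Cyp4a31, 1.42 for Cyp2c70 and 1.32 for Cyp4a10, and none could be given for Cyp2c66. Of the 12 lower genes, 4 (Cyp2c37, Cyp2c66, Cyp2c67 and Cyp2c70) lay in the Cyp2c run of chromosome 19, of whose genes 5 were tested, and 3 (Cyp4a10, Cyp4a31 and Cyp4b1) in the Cyp4a run of chromosome 4, where 3 were tested. Cyp2c66 and Cyp2c70 could be tested only because both tap-fed B10 arrays were well above background. Their lower level than in tap-fed B10 was thus favoured in advance, and the count for the Cyp2c run is not read as a pattern. In the same comparison 2 of 11 liver genes were lower, and most of the 11 were tested only through tap-fed B10. Also lower were 9 of 12 skeletal muscle genes, 6 of 8 endothelial genes and 4 of 8 adipocyte genes, while 5 of 12 heart genes were higher. The part of these lists in the P450 differences was not tested.

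The other lower genes were well above background on at least 1 JJ101-fed array. Cyp2c37 had -2.65 and -3.33 in JJ101-fed MDX, where it was not well above background on replicate 2, and -1.55 and -1.49 in tap-fed B10 (difference -1.47, SE 0.24, adjusted p = 0.015). Cyp2r1 had a difference of -1.18 (SE 0.22, adjusted p = 0.02). Cyp2j9 had a difference of -0.91 (SE 0.14, adjusted p = 0.0135). Cyp4b1, a family 4 enzyme known from lung, had 1.82 and 1.96 in JJ101-fed MDX and 2.38 and 2.50 in tap-fed B10 (difference -0.55, SE 0.11, adjusted p = 0.024). Cyp46a1, the cholesterol 24-hydroxylase of neurons, had -1.45 and -1.67 in JJ101-fed MDX and -0.82 and -1.16 in tap-fed B10 (difference -0.57, SE 0.15, adjusted p = 0.0422), and Cyp17a1 a difference of -0.53 (SE 0.14, adjusted p = 0.0407). Cyp4f18 and Cyp4v3, lower than tap-fed MDX in the comparison above, had differences of -0.04 and -0.25 from tap-fed B10 and did not pass. Over 16 alternatives the call was lost under 10 for Cyp2c70 (adjusted p up to 0.185), 9 for Cyp46a1, 6 for Cyp17a1, 4 each for Cyp2r1 and Cyp4b1, and 3 each for Cyp1b1 and Cyp4a10. It was lost under 4 of 15 for Cyp2c66 and under 2 of 16 each for the other 5.

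Several well measured P450 genes passed in no comparison. Cyp39a1, an oxysterol 7-alpha-hydroxylase, had levels of 1.25 and 0.63 in JJ101-fed MDX, 1.16 and 1.16 in tap-fed MDX and 0.89 and 1.07 in tap-fed B10. Cyp2d11 had 0.95 and 1.08 in JJ101-fed MDX, 1.03 and 0.62 in tap-fed MDX and 1.19 and 1.29 in tap-fed B10. Their groups overlapped between JJ101-fed and tap-fed MDX. Cyp2e1, Cyp2j6 and Cyp2r1 each had a second, dimmer probe, which was not well above background on the JJ101-fed arrays. No difference from those arrays is given for it. Between tap-fed MDX and tap-fed B10 the second probes differed by -0.59, -1.50 and 0.53 in that order. The probes used differed by -0.47, -0.03 and -0.33, so the sign was opposite for Cyp2r1. Mean levels of the second probes over all arrays were -4.14, -3.81 and -3.71, within the range of the arrays' floors.

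The partners of the P450 enzymes were read from lists of related genes, none of which had a member past the threshold between tap-fed MDX and tap-fed B10. Between JJ101-fed and tap-fed MDX, 5 of 9 electron transfer partners were higher and 2 lower. Fdxr, the mitochondrial ferredoxin reductase, differed by 1.01 (SE 0.12, adjusted p = 0.0128), Cyb5r1 by 0.74 and Pgrmc2 by 0.52, while Pgrmc1, a haem-binding P450 partner, differed by -0.71 (SE 0.14, adjusted p = 0.0206). Por, the reductase of the microsomal P450 enzymes, had 3.21 and 3.55 in JJ101-fed MDX and 2.71 and 2.95 in tap-fed MDX, with a difference of 0.55 (SE 0.16, adjusted p = 0.0476). Of 11 haem synthesis and breakdown genes 8 were higher and 0 lower, among them Alad (difference 0.92) and Fech (0.51), the enzymes of the second and last steps. With scaling to the arrays' spike-in controls, all genes tested had a median difference of -0.45 and 2.38% of all calls were higher. There 0 electron partners were higher and 2 lower, and 0 haem genes were higher and 2 lower, although 8 of 11 haem genes kept a positive difference (median 0.11). The P450 genes had 17 lower and 1 higher under that scaling, a split that nearly all calls shared. With median centring, all genes had a median difference of 0.23, 75% of all calls were higher, and 5 P450 genes were lower and 0 higher.

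Regulators of the P450 genes gave mixed counts. Of 12 nuclear receptors 4 were higher (Rxrg, Ppard, Ppara and Rxrb) and 2 lower in JJ101-fed MDX than in tap-fed MDX. Ppara, the receptor that induces the Cyp4a genes in liver, had 4.07 and 4.10 in JJ101-fed MDX and 3.22 and 3.41 in tap-fed MDX (difference 0.77, SE 0.12, adjusted p = 0.0137). Nr1i3, the constitutive androstane receptor, had -4.67 and -5.37 in JJ101-fed MDX, below the arrays' floors, and -3.39 and -2.61 in tap-fed MDX (adjusted p = 0.016). Of 8 genes of aryl hydrocarbon receptor signalling 2 were higher and 0 lower, and Ahrr, its repressor, differed by 0.75 (SE 0.11, adjusted p = 0.0137). Dbp, a clock-controlled factor that drives P450 genes in liver, differed by 1.21 (SE 0.14, adjusted p = 0.0128), and 3 of 4 genes of its family list were higher. With spike-in scaling none of these 3 lists had a gene higher.

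Substrate supply and second-phase enzymes were counted in the same way. Of 8 tested genes of arachidonic acid supply 2 were higher and 3 lower, with Ptgs2, an inducible cyclooxygenase, at -3.92 and -5.14 in JJ101-fed MDX, below the arrays' floors, and -1.94 and -2.80 in tap-fed MDX (adjusted p = 0.0267). Of 10 genes of retinoic acid handling 1 was higher and 2 lower, and of 9 steroid genes 0 were higher and 1 lower, Hsd11b1, which makes active glucocorticoid (difference -0.73, SE 0.13, adjusted p = 0.0179). Of 9 conjugating enzymes 4 were higher and 2 lower. None of the 4 epoxide hydrolases passed. Cyp51, the sterol demethylase outside the symbol pattern, differed by -0.51 (SE 0.12, adjusted p = 0.0299). Shares of all genes tested that were higher and lower, given above as 19.9% and 16.1%, are the background of these counts.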

How the data were processed

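The authors' deposited scanner files hold 1 array each, and per the file headers and the submitters' processing notes they came from Agilent Feature Extraction 11.5.1.1. The deposited intensity used was the processed signal, together with the scanner's flags for spots well above background and for outliers. The deposited series table holds the authors' log2 values, with its normalization not given in the sources used here, and served as an alternative; its column medians lay between 5.68 and 5.69. Probes were named through the RefSeq accession in the files and a GRCm38.p6 table, which named 27656 of 55681 probes. No column of another sample was used.

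Levels are log2 intensity minus the array's 75th percentile over 59305 non-control spots, without outlier spots. A probe was kept (27258 were) if some group had it well above background on each of its 2 arrays, and the kept probe with the highest mean stood for a gene. The 20869 genes and transcripts (13952 with a symbol) were tested with limma 3.58.1 in R 4.3.3, 2 arrays a group, all 3 groups together, two-sided, with p-values adjusted by Benjamini-Hochberg across these. The fit was tested on simulated data. Array number limits the precision.

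Alternatives were median centring, spike-in scaling, normexp with quantile normalization (on the median signals with an offset of 50, as the files had no mean signal column), the authors' table, no filter, other probe choices, 2 groups only, replicate and slide column blocks, and leaving out each array. Leaving out an array of the group not compared repeated the fit with only the 2 groups. Counts over the alternatives therefore hold that fit more than once. A common floor for dim values was added after seeing the data. The P450 genes, the classes, the lists and the genes named were chosen with earlier results of these data known. Named with values were P450 genes past the threshold or under an unadjusted p of 0.01 in any comparison, the 8 with the highest mean level, those detected on both arrays of 1 group and none of another, and up to 4 genes of a list; Cyp4v3 and Cyp7b1 in the comparisons they did not pass, and Myh6 and Myh4, were named after their values were seen. Promoter windows came from RefSeq. Probe sequences and genome coordinates of the probes were not used here.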

Additional observations from a re-analysis of the deposited data

How the results depend on the processing

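Between tap-fed MDX and tap-fed B10, 0 P450 genes passed in the reported fit, 3 under each of median centring, spike-in scaling, normexp with quantile normalization and the authors' table, 1 with only the 2 groups, 2 with the common floor, and between 0 and 1 when 1 array was left out; over all genes 5 passed, against 285, 485, 407 and 348 under those 4 scalings in that order, 125 with only the 2 groups, 76 with the common floor, 15 with the second probe and 0 with no filter, where 5113 had an unadjusted p under 0.05. Between JJ101-fed and tap-fed MDX, 8 passed in the reported fit, 5 under median centring, 18 under spike-in scaling, 24 with no filter (17 higher and 7 lower, of 93), 2 with only the 2 groups, 0 with the slide column block, and between 0 and 16 when 1 array was left out; over all genes 7529 passed, 3247 with only the 2 groups and 13640 with no filter. Of all calls 55.3% were higher in the reported fit, 75% under median centring and 2.38% under spike-in scaling. Between JJ101-fed MDX and tap-fed B10, 13 passed, 31 with no filter (19 higher and 12 lower), between 11 and 19 under the other scalings, and between 0 and 12 when 1 array was left out. The cause of these moves was not tested, except that no filter adds the 56 P450 genes that no group had well above background on both of its arrays. Of the P450 genes, 39 were detected on no array. With no filter the median difference over all genes was 0.26 from tap-fed MDX and 0.23 from tap-fed B10, against 0.00 and -0.01 in the reported fit. The higher calls with no filter are therefore not read as P450 genes rising in JJ101-fed MDX. A replicate block left 0, 8 and 11 P450 genes in the 3 comparisons, and same-numbered arrays correlated at -0.03, 0.16 and -0.06 in their deviations, so the numbers were not taken as pairs. Of 423 alternatives over 26 single-gene differences, 294 kept direction and side of the threshold, 112 no longer passed without turning sign (1 of them, Cyp4a31 with the common floor, at a difference of 0), 17 passed newly and 0 reversed. The 423 are not all separate fits, since leaving out an array of the group not compared repeated the fit with only the 2 groups.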
